A study of Bos taurus with 32 samples.

Results

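The genes described here belong to the transforming growth factor beta (TGF-beta) superfamily of secreted factors, with its receptors and a binding protein. Members were found on a custom bovine oligonucleotide array as probes whose gene name or bracketed symbol was GDF7, ACVR2B, BMPR2, BMP2, BMP4, INHBA, FST, TGFB1, TGFB2 or TGFBR2. Probes for 6 of these 10 genes were found in this way. The BMPR2 probe carries the file name bmprii and was added because RefSeq lists that name as a synonym of BMPR2. No probe carries the name of BMP2, TGFB2 or TGFBR2, and these 3 genes were not analysed here. These were 7 of 5934 genes that could be named on the array, with 8 probes (2 for FST) of 15208.

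In this family a dimeric ligand brings together type II and type I serine/threonine kinase receptors, and the activated type I receptor phosphorylates SMAD proteins that move to the nucleus. TGF-beta and activin act mainly through SMAD2 and SMAD3, and bone morphogenetic proteins (BMPs) mainly through SMAD1, SMAD5 and SMAD9. Activins, BMPs and their binding proteins are known for roles in growth and remodelling of the endometrium and in its preparation for the conceptus.

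Endometrium was collected on Day 15 of the oestrous cycle from 4 repeat breeder (RB) and 4 normally fertile (non-RB) cows, all non-lactating Japanese Black cows. RB cows had repeatedly failed to conceive although their uterus and ovaries were healthy on palpation. Non-RB cows had conceived and been checked by ultrasound, their pregnancy was ended with cloprostenol, a prostaglandin analogue, and they cycled again before sampling, so the groups also differed in recent pregnancy. Age was given only as a mean over the cows. From each horn, ipsilateral or contralateral to the ovary with the corpus luteum, the caruncular (CAR) areas, where the placenta attaches, and the gland-bearing intercaruncular (ICAR) areas were cut out. This gave 8 groups of 4 arrays, 32 in all, with 1 colour per array. Levels are log2 processed signals from which that of the array's 75th percentile was subtracted, so a level of 0 equals that percentile and a difference of 1 is a doubling.

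The 75th percentile lay between 1165 and 4857 intensity units and 74.3% to 85.8% of probes were well above background. The 32 arrays came from 8 slides scanned in 4 calendar months. The 2 arrays of slide 1 (non-RB CAR contralateral 2 and non-RB ICAR contralateral 1) stood apart. Their 100 identical GAPDH spots had an SD of 1.32 and 0.869 (log2), against a median of 0.153 over all arrays. Outside slide 1 this SD was highest in non-RB ICAR ipsilateral 2 (0.536), non-RB CAR ipsilateral 4 (0.430) and RB CAR ipsilateral 4 (0.395). For several results that turn on the slide 1 arrays, the values without those arrays are given as well. Gland markers were present in both areas, and all 8 probes of that list were well above background on all 32 arrays, CAR included.

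The probe sequences are printed for the genes on which the comparisons below turn, because each level is the signal of a single 60-base oligonucleotide. They are given 5′ to 3′ as in the array files, with runs of 6 or more G or C in capitals. All 60 bases are shown for GDF7, BMPR2, BMP4 and TGFB1, and the first 30 bases for ACVR2B, INHBA and both FST probes.

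GDF7: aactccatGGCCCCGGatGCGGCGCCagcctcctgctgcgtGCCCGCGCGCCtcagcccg

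BMP4: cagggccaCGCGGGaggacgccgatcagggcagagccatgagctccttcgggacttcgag

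TGFB1: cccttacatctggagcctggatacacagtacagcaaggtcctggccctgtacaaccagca

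BMPR2: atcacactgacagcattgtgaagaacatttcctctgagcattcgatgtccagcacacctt

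ACVR2B: aaagttgtgttttgttttggaaatcccata

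INHBA: agacggtccagagaagacagtggtgacacg

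FST, probe ABR1323: tgaagaccaggactacagctttcctatatc

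FST, probe ABR5659: ttttcacccaatgtgtcatggaaaagtata

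The GDF7 probe is 76.7% G or C, with 3 capitalised runs of up to 11 bases. Over all probes the median was 43.3%, and 0.224% of probes were as rich in G or C as the GDF7 probe. Runs of 6 or more occurred in 12.8% of all probes and, among the members, in the GDF7 and BMP4 probes. The ACVR2B probe is 33.3% G or C, and 4.77% of probes were as low. The longest run that the GDF7 probe shares with the probes for its close relatives GDF5 and GDF6 is 5 and 6 bases.

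All 8 member probes were well above background on all 32 arrays, so none was lost to the filter on dim probes. They fell into a bright and a dim set. FST gave a median processed intensity of 27426.5 with probe ABR1323 and 7712 with probe ABR5659, and INHBA gave 3392.5. GDF7 gave a median intensity of 309, BMPR2 of 90.5, ACVR2B of 81.3, TGFB1 of 69.98 and BMP4 of 63.4. Probes differ in how well they bind, so these intensities do not rank the genes.

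**Figure D1:**
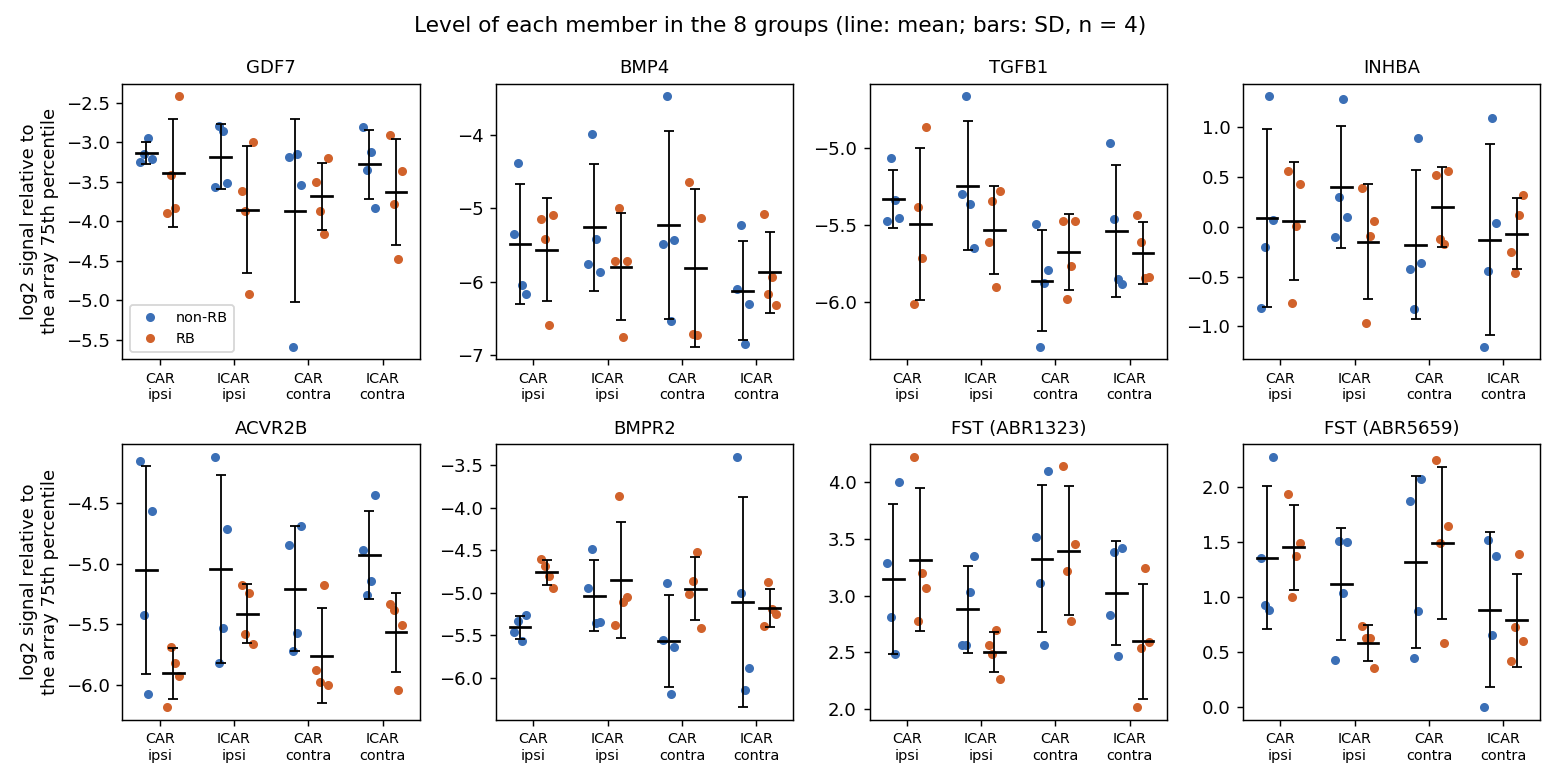
Level of each member probe (log2 signal minus that of the array's 75th percentile) in the 8 groups, as 4 points a group with the mean (line) and SD (bars). RB and non-RB points overlap in every panel and compartment except for BMPR2 in CAR ipsi and ACVR2B in ICAR contra.

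The first question was whether these genes differed between RB and non-RB cows within each compartment. After Benjamini-Hochberg adjustment over all probes (limma) no member differed in any of the 4 compartments or in the whole uterus. The share of all probes called was 0% in each of these 5 comparisons. At an unadjusted p under 0.05, 1 of 8 member probes passed in CAR ipsi (BMPR2, background 3.41% of probes) and 1 of 8 in ICAR contra (ACVR2B, background 1.6%). None of the 8 passed in ICAR ipsi (3.69%), CAR contra (1.74%) or the whole uterus (2.21%). The members were proposed with earlier results of these data in view, so these counts are not independent evidence.

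BMPR2 is the type II receptor through which BMPs and several growth and differentiation factors signal. In CAR ipsi the RB levels were -4.60, -4.69, -4.80 and -4.94 and the non-RB levels -5.47, -5.33, -5.56 and -5.26. Every RB array lay above every non-RB array. The difference was 0.65 ± 0.22 (log2, SE), 1.57-fold, with an unadjusted p of 0.0158 and an adjusted p of 0.9997 (limma). The exact two-sided permutation test gave p = 0.0286, the smallest that 4 against 4 arrays allow. Groups that did not overlap were found for 1.97% of all probes in that compartment. In ICAR ipsi (2.23% of all probes), CAR contra (1.37%) and the whole uterus (1.19%) no member had groups that did not overlap. Arrays scanned in the same month differed the same way, by 0.70 (3 RB and 2 non-RB arrays) and by 0.31 (1 of each). No slide carried both RB and non-RB arrays in CAR ipsi, so slide and group cannot be told apart there. With normexp background correction the difference shrank to 0.27.

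In CAR contra the BMPR2 levels of RB cows were -5.02, -4.86, -4.52 and -5.41, and those of non-RB cows -5.55, -4.88, -6.19 and -5.64. The groups overlapped through non-RB 2, an array of slide 1. The difference was 0.61 ± 0.32 (SE, unadjusted p = 0.0882, limma) and, without that array, 0.84 ± 0.27 (unadjusted p = 0.0146). In both ICAR areas the mean difference was small, 0.18 ± 0.36 in ICAR ipsi and -0.07 ± 0.55 in ICAR contra. In ICAR contra the non-RB levels were -3.40, -5.00, -6.14 and -5.89, and the highest was the slide 1 array. Without it the difference was 0.50 ± 0.30. The RB effect on BMPR2 did not differ detectably between CAR and ICAR, with a difference of 0.57 ± 0.40 (unadjusted p = 0.161, adjusted p = 0.9999, limma) and 0.40 ± 0.29 without slide 1. Over the whole uterus the BMPR2 difference was 0.34 ± 0.25.

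ACVR2B encodes a type II receptor for activins, myostatin and some BMPs. Its mean was lower in RB than in non-RB cows in all 4 compartments. The differences were -0.85 ± 0.40 (SE) in CAR ipsi, -0.37 ± 0.37 in ICAR ipsi, -0.55 ± 0.32 in CAR contra and -0.64 ± 0.27 in ICAR contra. The 4 comparisons use samples of the same cows, so the shared direction is not 4 separate observations. In ICAR contra the RB levels were -5.33, -5.38, -6.05 and -5.51 and the non-RB levels -4.89, -5.26, -5.14 and -4.43, and the groups did not overlap, as for 1.48% of all probes there. The unadjusted p was 0.0433 and the adjusted p 0.9998 (limma), and the exact permutation p was 0.0286. Arrays scanned in the same month differed by -0.72 (1 RB and 2 non-RB arrays) and by -0.07 (1 of each). With the slide as a block the difference was -0.22, which rests on slides 6 and 8, with 1 RB and 1 non-RB array on each. Differences within a scan month were -1.11 and -1.36 in CAR ipsi, -0.87 and -1.04 in CAR contra, and -1.29, -0.54 and 0.64 in ICAR ipsi.

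The non-RB group was split for ACVR2B. Non-RB samples 1 and 4 had the highest levels in every compartment, from -4.89 to -4.12. Non-RB samples 2 and 3 lay between -6.08 and -5.14, within the RB range of -6.19 to -5.18 except for 1 value. Averaged over the 4 compartments, the non-RB levels were -4.50, -5.56, -5.58 and -4.60 and the RB levels -5.64, -5.66, -5.57 and -5.78. The RB spread was small (SD 0.0852 against 0.589 in non-RB). The whole-uterus difference was -0.60 ± 0.27 (SE, unadjusted p = 0.0530, adjusted p = 0.99998, limma), with an exact permutation p of 0.0571. Treated as 16 against 16 independent arrays the same difference had an unadjusted p of 0.0012 and an adjusted p of 0.114 (limma). Without the slide 1 arrays the means by number gave -0.65 ± 0.28. The 8 group means ran from -4.93 in non-RB ICAR contra down to -5.91 in RB CAR ipsi, with all 4 non-RB means above all 4 RB means. No gap between neighbours in that order exceeded 0.54 of their pooled SD.

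**Figure D2:**
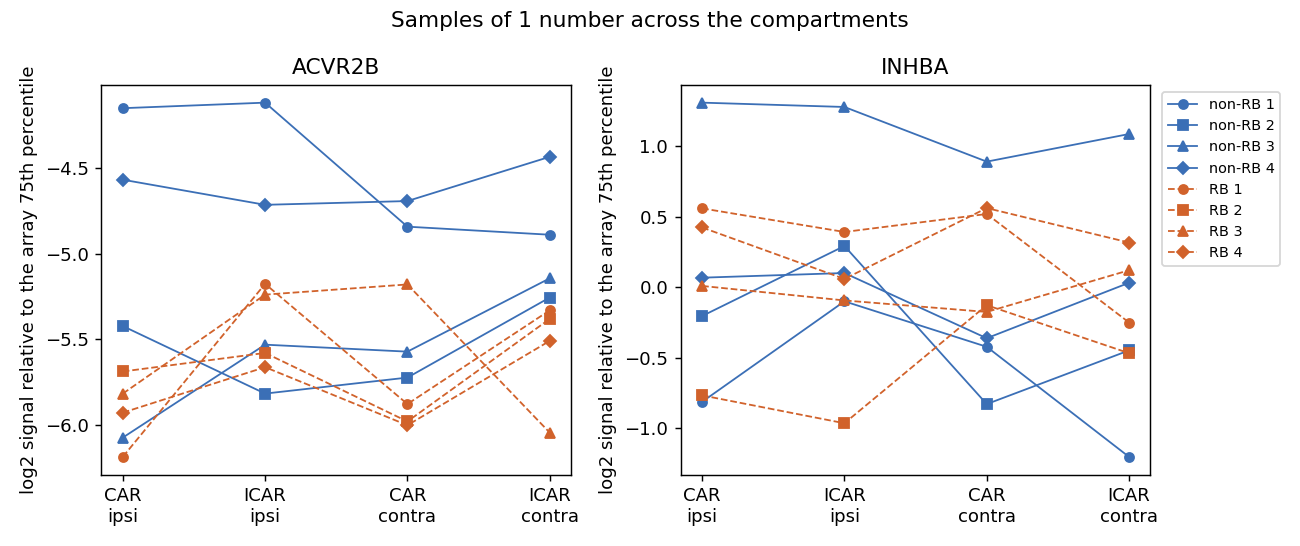
Level of ACVR2B and INHBA (log2 signal minus that of the array's 75th percentile) in the 4 compartments, with lines joining samples of the same number within RB (dashed) and non-RB (solid) cows. For ACVR2B the lines of non-RB 1 and 4 run above all others, and for INHBA the line of non-RB 3 does.

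INHBA encodes the inhibin beta A chain, of which activin A is a dimer. Its level followed the sample number more than the group. Non-RB 3 read 1.31, 1.28, 0.89 and 1.09 in CAR ipsi, ICAR ipsi, CAR contra and ICAR contra, above every other sample in each compartment. RB 2 averaged -0.58 and non-RB 1 averaged -0.63 over the compartments. The SD between the 8 sample means was 0.577, against 0.221 within a sample number. Differences between RB and non-RB cows were -0.03 ± 0.46, -0.54 ± 0.38, 0.37 ± 0.39 and 0.06 ± 0.46 (SE) in the same order, none beyond the spread within the groups. The lowest non-RB levels in CAR contra (-0.83) and ICAR contra (-1.20) were slide 1 arrays, and the sign in ICAR contra rests on that array. The INHBA differences without the slide 1 arrays are not given here. Without non-RB 3 the whole-uterus difference moved from -0.04 to 0.33.

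GDF7, a BMP-type ligand, had its lowest spread in non-RB CAR ipsi, at -3.25, -3.15, -2.94 and -3.22. The RB levels there were -3.89, -3.41, -3.84 and -2.42, with 3 of 4 below all non-RB arrays and RB 4 above them. The difference was -0.25 ± 0.34 (SE, unadjusted p = 0.477, limma) and, without RB 4, -0.57 ± 0.25. Leaving out the highest RB array can only lower the difference, so that value is no separate evidence. RB 4 also had the highest GDF7 mean of the RB samples over the 4 compartments, -2.99. In ICAR ipsi the difference was -0.67 ± 0.40 and in ICAR contra -0.35 ± 0.37. The latter turned to 0.10 with the slide and to 0.26 with the scan month as a block. The slide value rests on slides 6 and 8, with 1 RB and 1 non-RB array on each. In CAR contra the non-RB levels were -3.19, -5.58, -3.15 and -3.54, where the low value was the slide 1 array, and the difference of 0.18 ± 0.53 turned to -0.39 ± 0.27 without it. Over the whole uterus the difference was -0.27 ± 0.29, or -0.40 ± 0.27 without the slide 1 arrays.

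BMP4, a ligand of the BMP receptors, and TGFB1, the ligand that gives the family its name, gave no difference that passed an unadjusted p of 0.05. BMP4 varied most of all members, with an SD of 0.761 within groups. Non-RB 2 had the highest BMP4 level in each compartment (-4.37, -3.99, -3.47 and -5.23) except ICAR contra, where RB 1 read -5.07. Its RB differences ran from -0.58 ± 0.70 in CAR contra to 0.25 ± 0.40 in ICAR contra, and the first became 0.01 ± 0.58 without the slide 1 array. In CAR contra the BMP4 direction turned with the slide as a block, to 1.12 ± 0.25 (SE, unadjusted p = 0.0084, adjusted p = 0.689, limma). That value rests on slides 6 and 8, with 1 RB and 1 non-RB array on each. With the scan month as a block the difference turned to 0.84 ± 0.35. TGFB1 varied least, with an SD of 0.299, and its RB differences ran from -0.29 ± 0.26 in ICAR ipsi to 0.19 ± 0.24 in CAR contra. The lowest non-RB TGFB1 level in CAR contra, -6.29, was the slide 1 array.

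Follistatin (FST) binds activins and keeps them from their receptors. Its RB differences with probe ABR1323 were 0.17 ± 0.41 in CAR ipsi, -0.37 ± 0.24 in ICAR ipsi, 0.07 ± 0.39 in CAR contra and -0.43 ± 0.33 in ICAR contra. Probe ABR5659 gave 0.09 ± 0.36, -0.54 ± 0.27, 0.17 ± 0.46 and -0.10 ± 0.38 in that order. With all arrays, both probes had the same sign in each compartment, and none of these values passed an unadjusted p of 0.05. In CAR contra the non-RB ABR5659 levels were 1.88, 0.45, 0.88 and 2.08, against an RB mean of 1.49. The level of 0.45 was the slide 1 array, and the ABR5659 sign there rests on it. In ICAR contra the slide 1 array read -0.00 with ABR5659, the lowest of its group. The FST differences without these arrays are not given here. With the slide as a block, ABR1323 in CAR contra was 0.75 ± 0.27 (unadjusted p = 0.0413) and ABR5659 in ICAR ipsi -0.73 ± 0.29 (unadjusted p = 0.0474). Each of these values rests on slides 6 and 8, with 1 RB and 1 non-RB array per slide.

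**Figure D3:**
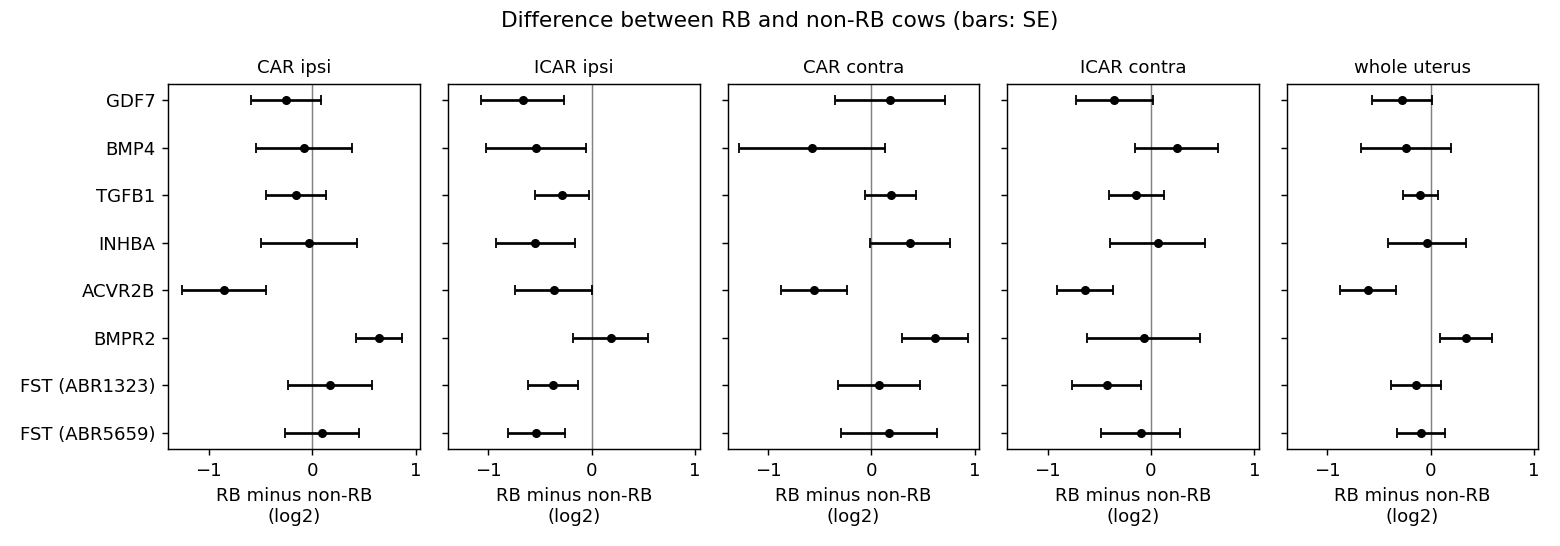
Difference between RB and non-RB cows (log2, x axis) for each member probe in the 4 compartments and in the whole uterus, with bars for the SE. ACVR2B lies left of 0 in all panels, BMPR2 lies at 0.65 and 0.61 in the CAR panels and nearer to 0 in the ICAR panels.

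The compartments were compared next. CAR and ICAR differed for 174 of 12919 probes after adjustment (1.35%), and 16.2% passed an unadjusted p of 0.05. No member passed the adjusted test, and both FST probes passed the unadjusted test. This fit did not pair samples of the same number. With the sample number as a block both FST probes passed the adjusted test, as given under the dependence on processing. The labels do not say that a number marks a cow. With probe ABR1323, FST ranged from 2.49 to 4.23 (median 3.21) in the 16 CAR arrays and from 2.02 to 3.42 (median 2.58) in the 16 ICAR arrays. The groups overlapped, with 0.55 ± 0.18 (SE) more signal in CAR, 1.46-fold, an unadjusted p of 0.0042 and an adjusted p of 0.0925 (limma). Probe ABR5659 ranged from 0.45 to 2.28 (median 1.43) in CAR and from -0.00 to 1.52 (median 0.69) in ICAR, a difference of 0.56 ± 0.19 with an unadjusted p of 0.0059 and an adjusted p of 0.107. The lowest ABR5659 level in each area came from a slide 1 array. Without these arrays the differences were 0.56 ± 0.19 (ABR1323, adjusted p = 0.119) and 0.57 ± 0.17 (ABR5659, adjusted p = 0.0962). The 2 probes share no run of 14 or more bases with each other or with another probe, so they read FST separately on the same arrays. All 4 CAR means lay above all 4 ICAR means for each probe, and no gap between neighbouring means exceeded 0.64 of their pooled SD. In RB cows the CAR means were 3.32 and 3.40 and the ICAR means 2.50 and 2.60 (ipsilateral and contralateral, ABR1323). In non-RB cows they were 3.15 and 3.33 against 2.88 and 3.03. The RB effect differed between CAR and ICAR by 0.52 ± 0.37 (ABR1323, unadjusted p = 0.165) and 0.45 ± 0.39 (ABR5659, unadjusted p = 0.264), neither past the adjusted test (limma). Leaving out 1 sample number at a time moved the FST difference between 0.35 and 0.66 with ABR1323, where the lowest came without RB 1, and between 0.43 and 0.76 with ABR5659.

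The other members differed little between the compartments. ACVR2B was -0.24 ± 0.17 in CAR relative to ICAR, BMP4 0.24 ± 0.28, BMPR2 -0.13 ± 0.19, TGFB1 -0.09 ± 0.12, GDF7 -0.03 ± 0.22 and INHBA 0.03 ± 0.22 (SE, limma).

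Of the cell type markers, only gland probes passed the adjusted test between CAR and ICAR. At an unadjusted p under 0.05, 0 of 6 endothelium probes and 0 of 5 leukocyte probes passed (limma). Of 8 gland probes, 3 were lower in CAR after adjustment, FOXA2 by -1.69 ± 0.38, SPDEF by -1.92 ± 0.40 and C20orf114 by -2.11 ± 0.42 (log2, SE, adjusted p = 0.0361, 0.0353 and 0.0353, limma). These calls were lost, with those of all other probes, without the slide 1 arrays or without any one of RB 1, RB 2, RB 4, non-RB 1, non-RB 3 or non-RB 4. The summed gland signal ran from 4.10 to 20.03 times the 75th percentile (median 6.69) in CAR and from 3.61 to 33.9 (median 13.1) in ICAR. Both LTF probes, the only ones of the list with a mean level above 0, weigh most in this sum. The summed stroma signal of 5 probes ran from 51.9 to 107 (median 70.5) in CAR and from 33.9 to 88.7 (median 52.8) in ICAR, and no stroma probe passed the adjusted test. COL3A1, by far the brightest of them (mean 5.89 in CAR and 5.48 in ICAR), makes up most of this sum. In tissue of mixed cells, fewer cells of a type and less RNA per cell cannot be told apart. The part of these markers in the FST difference was not tested. Of the blood markers, HBA was well above background on 10 of 32 arrays and HBB on 0 of 32.

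Between RB and non-RB cows no marker passed the adjusted test. The summed gland signal, in which the LTF probes weigh most, ran from 4.199 to 20.4 (median 7.10) in the 16 RB arrays. It ran from 3.61 to 33.9 (median 13.1) in the 16 non-RB arrays. Probe by probe the list had no common direction. In RB cows 3 of 8 gland probes were higher in CAR ipsi (median difference -0.18) and 5 of 8 in ICAR ipsi (0.93). In CAR contra 6 of 8 were higher (0.42) and in ICAR contra 0 of 8 (-0.62). In CAR ipsi, where BMPR2 did not overlap, it ran from 5.55 to 6.75 in RB and from 4.12 to 20.03 in non-RB cows. The summed signal of 6 epithelium probes did not overlap there, at 17.5 to 25.5 in RB and 34.8 to 48.3 in non-RB cows. EPCAM and KRT8, the brightest of them, weigh most in this sum. Of all single probes, 1.97% did not overlap there. All 6 epithelium probes were lower in RB cows (median -0.63, against 0.02 over all probes). Of these, 1 of 6 passed an unadjusted p of 0.05 (limma), beside 3.41% of all probes. The direction was not particular to CAR ipsi. In ICAR ipsi 4 of 6 were lower (median -0.45), in CAR contra 5 of 6 (-0.54) and in ICAR contra 6 of 6 (-0.42). No slide carried both groups in CAR ipsi. In ICAR contra, where ACVR2B did not overlap, the gland sum ran from 4.36 to 13.3 in RB and from 12.8 to 33.9 in non-RB cows, and the epithelium sum from 12.8 to 61.1 and from 29.9 to 75.5. The part of the markers in these differences was not tested.

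Between the horns no member and no other probe passed the adjusted test (0%), and 1.36% of probes passed the unadjusted test. TGFB1 ranged from -6.01 to -4.67 (median -5.37) in the ipsilateral horn and from -6.29 to -4.97 (median -5.78) in the contralateral horn. The difference was 0.29 ± 0.12 (SE), 1.22-fold, with an unadjusted p of 0.0231 and an adjusted p of 0.9999 (limma), and it fell to 0.09 with normexp background correction. The other 7 probes differed by -0.12 to 0.23, and BMPR2 by 0.19 ± 0.19, or 0.38 ± 0.14 without the slide 1 arrays (unadjusted p = 0.0136). For the difference of the RB effect between CAR and ICAR 0 of 8 member probes passed an unadjusted p of 0.05 (0.642% of all probes), and between the horns 0 of 8 (1.04%).

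The rest of the pathway was described from a list of 89 genes by role, of which 43 had a probe. In CAR against ICAR, 36 of their 44 probes were tested and 2 passed the adjusted test, both higher in CAR, beside 0.387% of all probes called higher. The median difference of the 36 was 0.07, against 0.02 over all probes. Of the ligands, 1 of 6 tested probes passed, INHA, the inhibin alpha chain that pairs with INHBA to form an activin antagonist. INHA read -2.67 ± 0.38 in CAR and -3.30 ± 0.47 in ICAR (SD, n = 16), a difference of 0.64 ± 0.15 (SE, adjusted p = 0.0379). Of the inhibitors and binding proteins, 1 of 8 passed, BGN (biglycan), a matrix proteoglycan that binds TGF-beta. BGN read 2.66 ± 0.42 in CAR and 2.05 ± 0.46 in ICAR, a difference of 0.61 ± 0.15 (adjusted p = 0.0397). None of 7 receptor probes, 7 SMAD or regulator probes and 8 target probes passed. Both calls were lost without the slide 1 arrays (INHA 0.58, adjusted p = 0.0646, and BGN 0.56, adjusted p = 0.0632). They were also lost without any one of RB 1, RB 2, RB 4, non-RB 1, non-RB 3 or non-RB 4, when no probe at all was called (adjusted p from 0.0547 to 0.294), and the differences then stayed at or above 0.50 (INHA) and 0.52 (BGN).

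**Figure D4:**
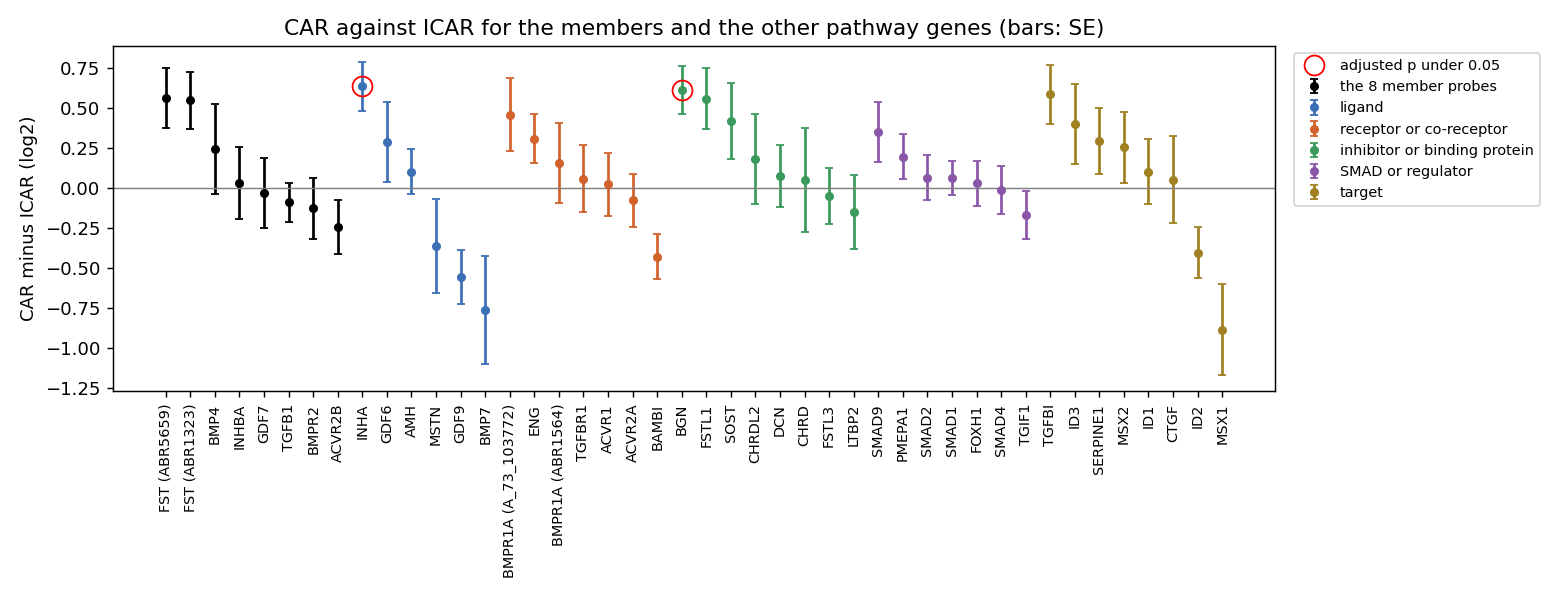
Difference between CAR and ICAR (log2, y axis) with its SE for the 8 member probes and the 36 tested probes of other pathway genes, ordered by role. The circled INHA and BGN, at 0.64 and 0.61, passed the adjusted test, and both FST probes lie at about the same height without passing it.

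Between RB and non-RB cows no probe of the pathway list passed the adjusted test. At an unadjusted p under 0.05, 1 of 36 probes passed in CAR ipsi (3.41% of all probes), 3 of 35 in ICAR ipsi (3.69%), 2 of 39 in CAR contra (1.74%), 2 of 36 in ICAR contra (1.6%) and 2 of 36 in the whole uterus (2.21%). Counts this small are a description and set no gene of the list apart. In CAR ipsi that probe was SMAD9, a BMP-type SMAD, higher by 0.77 ± 0.35 (SE, unadjusted p = 0.0498, limma) in RB cows. In ICAR ipsi the probes were ACVR1, a type I receptor, at 0.84 ± 0.35 (unadjusted p = 0.0364), FSTL3, a follistatin-like binder of activin, at -0.75 ± 0.33 (unadjusted p = 0.0452), and ID3, a target of BMP SMADs, at 0.80 ± 0.35 (unadjusted p = 0.0458). In CAR contra the probes were ID1 at 0.65 ± 0.28 (unadjusted p = 0.0449) and ID3 at 0.66 ± 0.22 (unadjusted p = 0.0156). In ICAR contra the ligand MSTN (myostatin) was at 1.16 ± 0.42 (unadjusted p = 0.0214). The other probe, for the type I receptor TGFBR1, was well above background on 2 of 4 RB arrays and 0 of 4 non-RB arrays. It entered the test through the RB arrays alone, so no difference is given. Over the whole uterus ID3 was at 0.63 ± 0.23 (unadjusted p = 0.0236). Its levels in non-RB ICAR contra, a group with a slide 1 array, ran from -4.59 to -0.85 (SD 1.75). The ID3 difference without slide 1 is not given here. The other probe, for the ligand GDF6, was well above background on 3 of 16 RB and 6 of 16 non-RB arrays, and no difference is given for it.

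ID1, another target of BMP SMADs, and BAMBI, a decoy receptor, were followed in every comparison because the study lists them for these samples, which makes them no independent evidence. ID1 read 2.92 ± 0.49 in RB and 2.15 ± 0.61 in non-RB cows in CAR ipsi (SD, n = 4) and 2.99 ± 0.39 and 2.35 ± 0.34 in CAR contra. Its RB differences were 0.76 ± 0.37 in CAR ipsi, 0.98 ± 0.49 in ICAR ipsi, 0.65 ± 0.28 in CAR contra, 0.08 ± 0.42 in ICAR contra and 0.62 ± 0.28 over the whole uterus. BAMBI differed by 0.24 ± 0.26, 0.59 ± 0.27, 0.70 ± 0.31, -0.07 ± 0.30 and 0.36 ± 0.22 in that order. None of the ID1 and BAMBI values passed the adjusted test (limma), and of the 10 only ID1 in CAR contra passed an unadjusted p of 0.05. BAMBI was -0.43 ± 0.14 in CAR relative to ICAR (unadjusted p = 0.0043, adjusted p = 0.0930) and ID1 0.10 ± 0.21, and their horn differences were -0.01 ± 0.14 and -0.17 ± 0.21.

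Last, the named genes whose levels varied most like 3 of the members were looked up over the 32 arrays, after the mean of each group was subtracted. These correlations are descriptions over arrays that share cows, slides and spot quality, drawn from 5099 probes. The slide 1 arrays, on which GDF7 and BMPR2 had extreme levels, are included, and no correlation was taken without them. For GDF7 the highest were VASP (Pearson r = 0.944), MTFMT (0.906) and MOB3C (0.883). Their probes are 53.3%, 35% and 43.3% G or C, and the GDF7 probe is 76.7%. The part of probe composition in these correlations was not tested. For ACVR2B, TSPAN13 (0.811) and NDUFA11 (0.806) were among the highest. For BMPR2 they were TET2 (0.886), PSMD4 (0.857) and MINDY1 (0.843).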

How the data were processed

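The authors hybridised Cy3-labelled cRNA of each sample to a custom 60-mer Agilent array and scanned it in 1 colour. The deposited intensities (processed, mean and background signals) come from Agilent Feature Extraction 9.5, per the submitters' processing notes. The deposited log2 table equals the log2 processed signal less a constant per array, which lay within 0.0140 of the 75th percentile used here.

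Here log2 processed signals were centred on the 75th percentile over 15208 non-control probes and outlier-flagged spots (at most 351 per array) were set missing, while saturated spots (at most 3) were kept. RB and non-RB arrays were compared within each compartment with limma 3.58.1 (R 4.3.3), keeping probes detected above background on 2 or more of the 8 arrays with 3 or more values per group. Whole-uterus tests used the mean of the arrays of each number (4 against 4), which takes a number for a cow, as the study compared the whole uterus by cow, although the labels do not say so. CAR against ICAR, the horns and differences of the RB effect used all 32 arrays, keeping probes detected on 8 or more. P-values were adjusted by Benjamini-Hochberg over all probes tested. Exact permutation tests compared 4 with 4 values for 40 member comparisons, without adjustment, and 2 gave p under 0.05.

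Gene symbols came from RefSeq for 6167 probes. No genome coordinates are printed because the array's build is not given in the sources used here. Members and lists were chosen with earlier results of these data known. All members were named. Other pathway genes were named where they passed the adjusted test, or else at an unadjusted p under 0.05. ID1 and BAMBI were always named. One gene of like pattern is not reported here. Simulated data with known shifts showed the precision that 4 arrays per group give: for RB against non-RB in CAR ipsi (13036 probes) the test recovered 0% of shifts of 0.5 (log2), 8% of shifts of 1 and 80% of shifts of 2. For CAR against ICAR (12384 probes) it recovered 46% of shifts of 0.5 and 84% of shifts of 1. Alternatives were no filter, a stricter filter, quantile normalization, normexp (offset 50), the deposited table, slide, scan month and replicate number as blocks, the methods' t-test, all arrays in 1 fit and leaving out samples in turn. Leaving out slide 1 was chosen after seeing the data.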

Additional observations from a re-analysis of the deposited data

Results flagged for a closer look

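Among 64 groups of 4 arrays (8 member probes in 8 groups), 2 had a single array far from the other 3, where chance alone gives about 1 in 20. GDF7 read -5.58 in non-RB CAR contralateral 2, below the other 3 at -3.54 to -3.15, on an array of slide 1 with uneven GAPDH spots. ACVR2B read -5.18 in RB CAR contralateral 3, above the other 3 at -6.00 to -5.88, on an array of slide 2. The SD of its GAPDH spots was 0.261, against 0.132 to 0.137 in the other 3 arrays of that group. The gap to the nearest of the others was 0.841 of the range of its group for GDF7 and 0.850 for ACVR2B.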

How the results depend on the processing

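Of 1272 values of the 72 member results under alternatives, 1260 stayed on the same side of the threshold or moved by less than the spread, 6 moved and 6 passed the threshold that the reported value had missed. No member had a call to lose, and shifts of 0.5 were recovered in 0% of cases in data simulated for RB against non-RB in CAR ipsi, so staying below the threshold says nothing about stability. The sign differed from the reported one in 109, where the reported size was at most 0.58. BMPR2 in CAR ipsi stayed higher in RB cows under 18 of 18 alternatives (0.27 with normexp to 0.71). No slide carried both groups there, so the slide block, fitted as a random effect, could not separate slide from group. ACVR2B ran from -1.19 to -0.55 in CAR ipsi, from -0.88 to -0.22 in ICAR contra and from -0.78 to -0.42 over the whole uterus, and in ICAR ipsi it turned to 0.26 with the slide as a block. In ICAR ipsi, CAR contra and ICAR contra the slide block compares the groups only on slides 6 and 8, with 1 RB and 1 non-RB array on each. The cause of the shifts between alternatives was not tested.

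For CAR against ICAR the number of member probes called rose from 0 to 1 with the slide as a block (FST ABR5659), to 1 with the scan month as a block and to 2 with the replicate block (both FST probes, adjusted p = 0.0280 and 0.0455, limma), and was 0 to 1 when a sample number was left out, with 1 without RB 3 (FST ABR1323, adjusted p = 0.0495) or non-RB 2 (FST ABR5659, adjusted p = 0.0222). Over all alternatives the FST adjusted p ran from 0.0280 to 0.481 (ABR1323) and from 0.0222 to 0.495 (ABR5659). Over all probes the 174 calls became 64 with normexp, 530 with the scan month, 1040 with the replicate block, 0 without the slide 1 arrays, and 0 to 915 when a sample number was left out (0 without RB 1, 2 or 4 or non-RB 1, 3 or 4, and 915 without RB 3).

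For RB against non-RB the 0 calls over all probes became 1 in ICAR contra without the slide 1 arrays, 0 to 1 with 1 replicate left out (1 without non-RB 1), and, for the whole uterus, 60 with the 32 arrays as independent samples and 67 with the methods' t-test on them. Between the horns 1 probe was called with the slide, the scan month or the replicate block. Unadjusted counts ran from 179 to 1156 probes in CAR ipsi, 223 to 1567 in ICAR ipsi, 116 to 963 in CAR contra, at most 421 in ICAR contra, fewest with normexp, 129 to 1758 in the whole uterus, and 97 to 1210 between the horns. The methods' t-test at an unadjusted p under 0.05 (the study states its lists at an adjusted p) called 462, 457, 239 and 262 probes in CAR ipsi, ICAR ipsi, CAR contra and ICAR contra, and 0 in each after Benjamini-Hochberg. Normexp moved the median of all probes by 0.224 (log2) in ICAR contra and by 0.136 in the difference of the RB effect between CAR and ICAR, and the scan month by 0.126 in CAR contra.

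Samples of the same number deviated together (correlation over 0.1) in 22 of 24 RB and 21 of 24 non-RB pairs of compartments, and the labels do not say that a number marks a cow, so the compartments were not fitted as paired. The whole-uterus means by number do take a number for a cow. With the replicate block, no RB comparison gained an adjusted call for a member. The 4 arrays per group limit the precision, and the signals of BMP4, TGFB1, ACVR2B and BMPR2 were dim.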
